A study of Mus musculus with 3 samples.

Results

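Fibroblasts of the mouse femoral artery in which transcripts of Chl1, Sned1, Sdk1 and Lbp were found together were described before and after wire injury. A cell counted as a fibroblast if at least 5 of 8 stromal genes (Pdgfra, Dcn, Lum, Col1a1, Col1a2, Dpt, Clec3b and Serpinf1) were detected, with at most 1 UMI each of the leukocyte gene Ptprc and the endothelial gene Pecam1. A UMI (unique molecular identifier) stands for 1 captured transcript. A fibroblast was a member if at least 2 of the 4 genes were detected and if this was more than the number detected from each of 4 other sets of 4 genes. Those sets were led by Pi16 and Dpp4, by Inmt, Penk and C7, by Cthrc1 and Aspn, and by Cxcl14, Mmp3 and Cilp. The rule gave 497 members of 5479 fibroblasts and 28139 cells that passed the filters, with 58 members in Sham, 9 at D2 and 430 at D7. The members were chosen by the detected UMIs of these sets and of the stromal genes, so the 4 genes and everything compared between members and other cells of the same library are given as a description, with no test.

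The cells came from 8-week-old wild-type male mice with a sham operation (Sham) or 2 days (D2) or 7 days (D7) after a wire injury of the femoral artery, for which the labels give no time of harvest after sham. Live single cells of 6 mice, sorted after DAPI staining, were pooled into 1 droplet library per group. Mouse, operation, dissociation and sort therefore cannot be told apart from group, and no test between groups was possible. The libraries held 7757, 11690 and 11574 barcodes with 39756684, 98260210 and 100571340 UMIs (Sham, D2, D7), of which 6006, 11191 and 10942 barcodes passed the filters. The libraries shared 21 to 29 barcodes pairwise, and no barcode was a member in more than 1 library.

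The 4 genes have different roles. Chl1 encodes a cell adhesion molecule of the L1 family, best known from axon growth, and Sdk1 encodes an adhesion molecule of the immunoglobulin superfamily known from synapses of the retina. Sned1 encodes a secreted glycoprotein of the extracellular matrix. Lbp encodes the lipopolysaccharide-binding protein, an acute-phase protein that hands bacterial lipopolysaccharide to CD14. In GENCODE M21 on mm10, Chl1 (ENSMUSG00000030077) lies at chr6:103510586-103750211, Sned1 (ENSMUSG00000047793) at chr1:93235841-93301065, Sdk1 (ENSMUSG00000039683) at chr5:141241490-142215586 and Lbp (ENSMUSG00000016024) at chr2:158306493-158332852, all on the plus strand and protein coding. Adventitial fibroblasts surround the media of an artery. After injury, fibroblasts can take on contractile and matrix-building features and are then called myofibroblasts.

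Members made up 2.32% of fibroblasts in Sham (58 of 2503, 95% Clopper-Pearson interval 1.76 to 2.99), 8.91% at D2 (9 of 101, 4.16 to 16.2) and 14.96% at D7 (430 of 2875, 13.7 to 16.3). All intervals cover counting error only. As shares of all cells that passed the filters, they were 0.966%, 0.0804% and 3.93%, the D2 value beside only 101 fibroblasts among 11191 cells. Members were deeper than other fibroblasts in Sham (medians of 6875 and 4922 UMIs) and at D2 (14282 and 8111), and alike at D7 (12039 and 12158). With every cell thinned to 2000 UMIs, which left out 647 Sham, 16 D2 and 231 D7 fibroblasts, the shares were 3.66%, 10.6% and 11.0%. The Sham and D7 intervals did not overlap on either scale.

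Most cells with at least 2 of the 4 genes were kept out by another set. At least 2 of the 4 genes, whatever the other sets, were found in 39.6% of Sham, 40.6% of D2 and 57.4% of D7 fibroblasts, and in 18.9%, 15.3% and 21.5% after thinning. After thinning the 3 intervals overlapped (17.1 to 20.7, 8.403 to 24.7 and 19.97 to 23.1). In Sham, 933 of 991 such cells were not members. Set Pi16 and Dpp4 tied or led in 613 of them and set Inmt, Penk and C7 in 682. At D7, 1220 of 1650 were not members, and set Cthrc1 and Aspn tied or led in 889. Membership was often narrow: 57 of 58 Sham members and 311 of 430 D7 members were ahead of the next set by 1 gene. Just outside the rule were 173 Sham and 542 D7 cells that had at least 2 of the 4 genes and tied with another set. The shares are plotted with and without thinning.

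**Figure D1:**
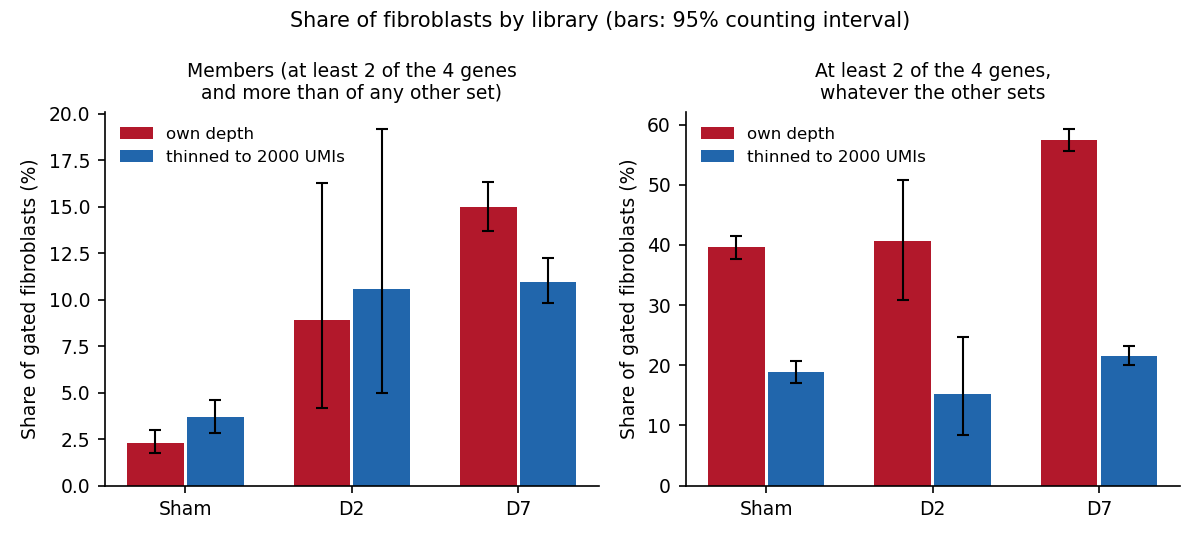
Share of gated fibroblasts (percent, vertical axis) in each library, as members (left) and as cells with at least 2 of the 4 genes whatever the other sets (right), at each cell's own depth (red) and thinned to 2000 UMIs (blue), with 95% Clopper-Pearson intervals. Members went from 2.32% in Sham to 14.96% at D7, and from 3.66% to 11.0% after thinning, while the thinned share on the right was 18.9% in Sham and 21.5% at D7.

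Chl1, by which the rule chose, was frequent in the D7 members and nearly absent from those in Sham. A Chl1 UMI was found in 2 of 58 Sham members (3.45%, 0.420 to 11.9), 6 of 9 D2 members and 322 of 430 D7 members (74.9%, 70.5 to 78.9). In all fibroblasts the share was 0.439% in Sham, 25.7% at D2 and 33.6% at D7. Leukocytes, which should lack the gene, gave 0.193%, 0.383% and 0.709% in the same libraries, so the Sham share in fibroblasts was near background and the shares after injury were far above it. Thinned to 2000 UMIs, Chl1 was found in 0.108%, 17.6% and 16.6% of fibroblasts. Fibroblasts held 74.9% of the Chl1 UMIs at D7, whereas 86.4% of those in Sham lay outside the fibroblast gate. The Sham members are therefore called by the rule and not by Chl1.

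In Sham, 34 of 58 members carried exactly Sned1, Sdk1 and Lbp, and 2 carried all 4 genes. At D7, 197 of 430 carried all 4, 83 lacked only Sdk1, and 61 lacked only Chl1. Sned1 stood at 397 CPM (the UMIs of a group of cells, summed and brought to one common total so that groups compare) in Sham, 1176 at D2 and 434 at D7 members. Sdk1 stood at 555, 430 and 239 CPM. Lbp stood at 212, 498 and 620 CPM, and Chl1 at 12.3, 490 and 480. The D2 levels rest on 9 members, of which the 3 highest held 89.2% of the Chl1 UMIs. For Sned1, Sdk1 and Lbp the 3 highest D2 members held 77.6%, 77.2% and 72.7%. The D7 fibroblasts of the Pi16 and Dpp4 set had 467 CPM of Sned1 and 889 of Sdk1, above the D7 members in both. In D7 fibroblasts thinned to the same depth, the other genes of the rule were detected more often beside Chl1: Sned1 was detected in 34.3% of 440 fibroblasts with Chl1 (29.9 to 39.0) and 16.2% of 2204 without (14.7 to 17.8). Lbp was detected in 55.9% and 37.3%, and Sdk1 in 15.7% and 12.6%, the last with intervals that overlapped. This was not particular to the genes of the rule. Of the 3 genes of other sets examined, Cxcl14 was also detected more often beside Chl1, at 53.0% (48.2 to 57.7) against 33.3% (31.3 to 35.3), while Cthrc1, at 45.2% with Chl1 and 53.1% without, and Aspn, at 49.3% and 60.3%, were detected less often.

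**Figure D2:**
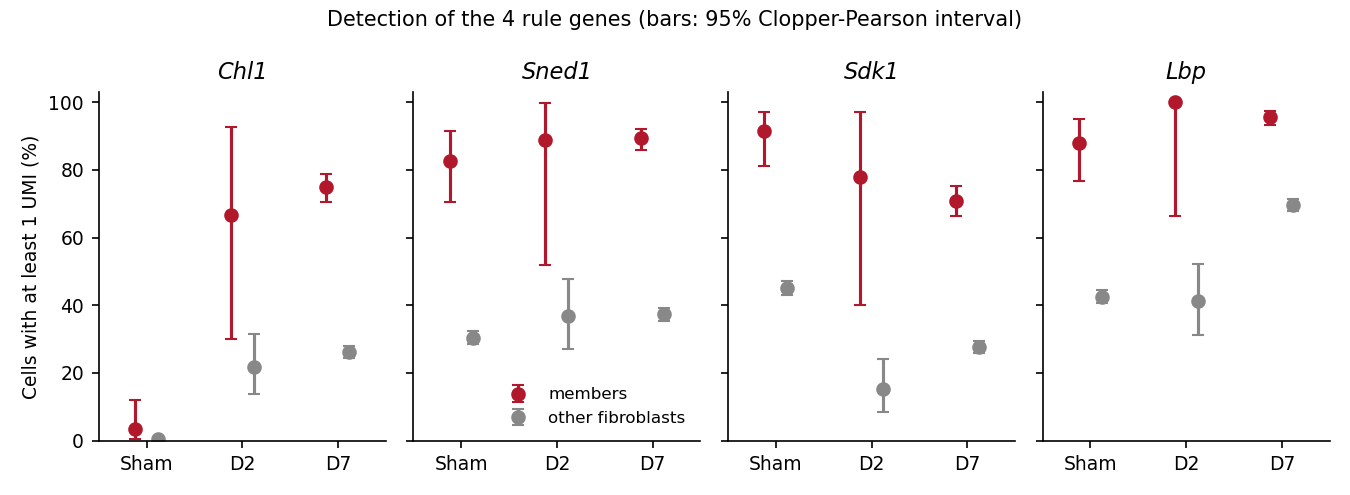
Percent of cells with at least 1 UMI (vertical axis) of the 4 genes of the rule in members (red) and other fibroblasts (grey) of each library, with 95% Clopper-Pearson intervals. Chl1 is found in 3.45% of Sham members and 74.9% of D7 members, while Sned1, Sdk1 and Lbp are frequent in the members of all 3 libraries, which the rule requires.

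The members were then set against the other fibroblasts of the same library, over all genes outside the rule. A gene was counted as apart if the ratio of (CPM + 1) was at least 2 either way, and if the higher side had no less than 50 CPM from 20 or more UMIs. At D7, 53 of 3368 genes were apart (1.57%), 32 higher (0.950%) and 21 lower (0.624%) in the 430 members than in the 2445 others. In Sham, 140 of 3663 were apart (3.82%), 60 higher (1.64%) and 80 lower (2.18%), from only 58 members. Of the 32 genes higher at D7, 1 was also higher in Sham, and of the 21 lower, 2 were also lower. The 9 members at D2 were too few for a comparison.

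Genes of complement and acute-phase defence were higher in D7 members. C3, the central complement component, stood at 868 CPM in members and 329 in other D7 fibroblasts (ratio 2.64, 2.55 to 2.73), with a UMI in 86.5% and 61.6% of cells. At D2 it was 2813 CPM in the 9 members and 194 in the 92 others. In Sham it was 1269 and 1345 CPM, so there the members were not above the others, and the D7 members were below both. Within D7, fibroblasts of the Pi16 and Dpp4 set (1622 CPM) and of the Inmt, Penk and C7 set (1286 CPM) had more C3 than the members, and those of the Cthrc1 and Aspn set had 111 CPM. Hp, which encodes the haemoglobin scavenger haptoglobin, stood at 138 and 34.1 CPM at D7 and at 32.1 and 5.93 CPM in Sham. Its 3 highest cells held 32.4% of the D7 members' UMIs, and a UMI was found in 30.7% of members.

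Of 13 measured complement genes, 8 were at least 1.5-fold higher and none lower, with a median log2 ratio of 0.69, beside 3.28% higher, 1.71% lower and a median of 0.01 over 6425 genes. Factor B (Cfb) stood at 233 against 136 CPM and C4b at 464 against 259. Cfd, the adipocyte-rich factor D, had the largest ratio, 48.1, but a UMI in 3.49% of members, and 92.9% of its UMIs lay in 3 cells. Summed adipocyte markers stood at 105 CPM in members and 1.40 in the others, with Plin1 at 0 in members. Their part in the Cfd result was not tested. Of 21 acute-phase and innate sensing genes, 9 were higher and none lower, with a median of 0.50. They included the interleukin-1 receptor Il1r1 (542 against 293 CPM), the pentraxin Ptx3 (118 against 51.9) and the metalloreductase Steap4 (202 against 129). Saa3 was 127 against 62.5 CPM, from 6.98% of members.

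Chemokines and cytokines followed the same direction, with 9 of 16 at least 1.5-fold higher and 1 lower (median 0.68). This was beside 3.28% higher and 1.71% lower over 6425 genes. Cxcl12, a ligand of CXCR4, stood at 1263 CPM in D7 members against 691 in the others, and Ackr3, the receptor that scavenges Cxcl12, at 189 against 71.8. Ackr3 was found in 46.5% of members. The eosinophil chemokine Ccl11 stood at 132 against 68.8 CPM, and Csf1, the macrophage growth factor, at 88.0 against 48.0. Cxcl13 had the ratio 6.53, with 42.7% of its UMIs in 3 cells. Il33, the alarmin named in the series title, stood at 56.8 CPM in Sham members, 1335 in the 9 D2 members and 670 at D7. In the other fibroblasts it was 130, 407 and 444 CPM. Members were thus below the others in Sham and above them at D7, by a ratio of 1.51 (1.45 to 1.57), while 75.1% of the D2 members' Il33 UMIs lay in 3 of the 9 cells.

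Adventitial progenitor genes were higher in D7 members and lower in Sham members. At D7, 9 of 15 were higher and none lower (median 0.66), among them Scara5 (163 against 73.0 CPM), Ly6c1 (840 against 396) and Cd248 (250 against 154). The D7 background was 3.28% higher and 1.71% lower of 6425 genes. In Sham, 13 of 20 were lower and none higher (median -0.86). There the background was 9.22% higher and 11.0% lower of 6812 genes. The rule leaves out cells in which the Pi16 and Dpp4 set tied or led, and over all Sham cells with at least 2 of the 4 genes the median was 0.85. Efemp1, a matrix protein of the fibulin family, was 156 against 46.4 CPM at D7 and 267 against 374 in Sham. Aldh1a2, an enzyme that makes retinoic acid, was 100 against 23.6 CPM at D7 and 9.88 in Sham members. Dkk2, a Wnt antagonist, was 51.0 against 21.4 CPM at D7, far under its Sham members' 459. Sfrp4, another Wnt regulator, was 2355 against 1136 CPM, and Vegfa, the endothelial growth factor, 73.2 against 29.8.

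Myofibroblast genes were more often lower than higher, and most matrix genes did not pass the 1.5-fold bound. None of 20 myofibroblast genes was at least 1.5-fold higher and 11 were lower, with a median of -0.70. Over all 6425 genes, the D7 background for this and the lists below was 3.28% higher and 1.71% lower. Acta2, smooth muscle actin, stood at 36.2 CPM in D7 members and 173 in the others (ratio 0.210, 0.180 to 0.242), and Tagln, an actin-binding protein, at 30.0 against 175. In Sham, Acta2 was 7.41 against 100 CPM and Tagln 7.41 against 76.5, each from 3 UMIs in members. Summed smooth muscle markers were 30.9 CPM in D7 members and 56.3 in the others, and their part in the difference was not tested. Postn, a matrix protein of wound fibroblasts, stood at 1235 against 2822 CPM, and elastin (Eln) at 362 against 905. Matrix glycoproteins and proteoglycans had 3 of 42 higher and 12 lower (median -0.29). Fibrillar and other collagens had 0 of 15 higher and 4 lower (median -0.49), with Col12a1 at 52.0 against 173 CPM and Col8a1 at 68.1 against 208. The rule leaves out cells in which the Cthrc1 and Aspn set tied or led, and with all cells holding at least 2 of the 4 genes the collagen median was -0.10, the matrix median -0.01 and the log2 ratio of Col12a1 -0.45. Thbs4, an adhesive glycoprotein of tendon, stood at 7.78 against 57.4 CPM, and Fmod, which binds collagen fibrils, at 29.8 against 111. With all cells holding at least 2 of the 4 genes, the log2 ratio of Fmod turned to 0.27 and that of Thbs4 was -1.10. Summed tendon and cartilage markers were 11.4 CPM in members and 71.3 in the others, with Tnmd, Chad and Col2a1 at 0 in members.

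Spp1, which encodes osteopontin, stood at 1188 against 270 CPM at D7, the highest ratio of the 20 plotted genes, but 94.8% of its UMIs in members lay in 3 cells and a UMI was found in 11.2% of them. Its log2 ratio was 2.13 as reported, 1.27 without the called doublets, 2.92 without cells that had 2 markers of another class, 2.28 in members with at least 3 of the 4 genes, and -0.62 with all cells holding at least 2 of the 4 genes. Spp1 thus turned with the cells taken, and its level rests on few cells. Csmd1, which encodes a membrane protein with complement-control domains, was more widely detected, at 917 against 333 CPM and in 78.8% of members, and the ankyrin Ank3 stood at 167 against 49.4. The 23 neural-type adhesion and guidance genes had a median of 0.04, near that of all genes. Of them, 5 (21.7%) were higher and 1 (4.35%) lower, beside 3.28% higher and 1.71% lower over 6425 genes. Those higher included Slit3 (298 against 176 CPM) and Sema3c (196 against 114).

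Against the fibroblasts of the Cthrc1 and Aspn set at D7 (934 cells), the same groups stood further apart. Here 155 of 3405 genes were apart (4.55%), 113 higher (3.32%) and 42 lower (1.23%). Efemp1 was 156 against 5.87 CPM, Adamts5, an aggrecan-cleaving protease, 229 against 23.7, and Prg4, which encodes lubricin, 66.6 against 5.27. Of 15 adventitial progenitor genes, 14 were higher (median 1.87), and of 21 myofibroblast genes, 15 were lower (median -1.001), beside 6.19% higher and 3.45% lower over 6462 genes. Against the Cxcl14, Mmp3 and Cilp set (334 cells), 131 of 3475 genes were apart (3.77%), 90 higher (2.59%) and 41 lower (1.18%). There 10 of 15 adventitial progenitor genes were higher (median 1.12) and 8 of 20 myofibroblast genes lower, with 2 higher (median -0.51), beside 7.37% higher and 3.66% lower over 6538 genes. Chemokines and cytokines stood closer to this set, with 3 of 16 higher and 2 lower (median 0.18). Acute-phase and innate sensing genes had 6 of 21 higher and 1 lower (median 0.22). Complement genes had 6 of 12 higher and none lower (median 0.53). The plot of the 20 named genes sets these 3 comparisons side by side, which share the members as 1 side.

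**Figure D3:**
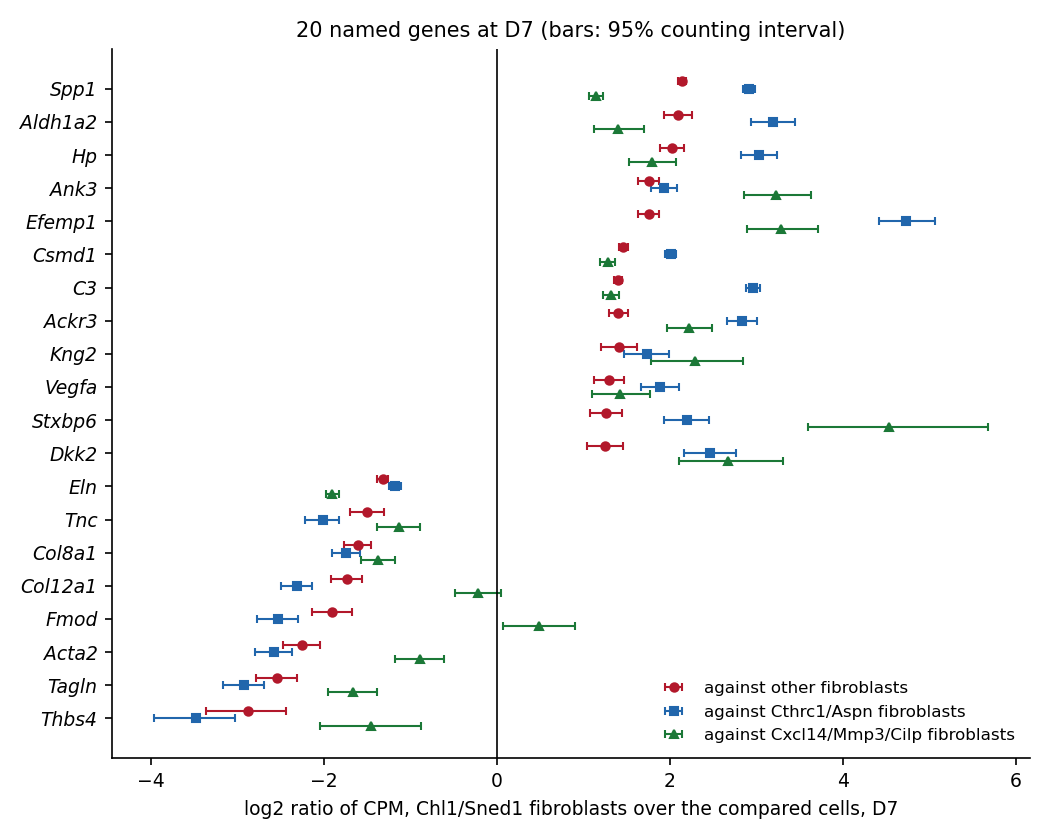
Log2 ratio of CPM (horizontal axis) of 20 named genes in D7 members over other D7 fibroblasts (red), Cthrc1/Aspn fibroblasts (blue) and Cxcl14/Mmp3/Cilp fibroblasts (green), with 95% counting intervals. The 12 highest genes lie above 0 in all 3 comparisons, and of the 8 lowest only Fmod lies above 0 in 1 of them, against the Cxcl14/Mmp3/Cilp fibroblasts, where the Col12a1 interval includes 0.

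C/EBP and AP-1 factors are known to act at acute-phase genes and TEAD factors at contractile genes, so promoter letters were searched for the genes at both ends of the D7 comparison. RefSeq promoters on GRCm38.p6 were matched for 9 of the 12 highest and 5 of the 8 lowest genes, and the 250 bases before the start were read on both strands. The C/EBP letters TTNNGCAA were in 4 of the 9 (C3, Ackr3, Efemp1 and Kng2) and 1 of the 5 (Fmod), and in 9.56% of 32851 promoters. The TEAD letters GGAATG were in 0 of the 9 and 2 of the 5 (Thbs4 and Acta2), and in 12.6% of all. Of the 250 bases read for Acta2, 217 lay in GENCODE M21 exons. The AP-1 letters TGANTCA were in 1 of the 9 (Efemp1), 0 of the 5 and 6.75% of all, and the NF-kB letters GGANTTTCC in none of the 14 and 1.06% of all. TATAAA was in 3 of the 9, 1 of the 5 and 12.4% of all. These are matches of letters and not sites. The promoters of 3 genes are shown because they carry the C/EBP or TEAD letters, with every match of the 5 motifs in capitals, read 5′ to 3′ on the gene's strand: C3 (chr17:57228137-57228386, minus), Ackr3 (chr1:90203730-90203979, plus) and Thbs4 (chr13:92794819-92795068, minus), none of which overlaps a GENCODE M21 exon.
C3: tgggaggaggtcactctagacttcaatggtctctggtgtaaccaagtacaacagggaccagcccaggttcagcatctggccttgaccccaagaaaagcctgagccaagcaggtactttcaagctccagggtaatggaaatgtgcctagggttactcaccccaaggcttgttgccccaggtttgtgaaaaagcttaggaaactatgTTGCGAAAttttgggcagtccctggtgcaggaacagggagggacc
Ackr3: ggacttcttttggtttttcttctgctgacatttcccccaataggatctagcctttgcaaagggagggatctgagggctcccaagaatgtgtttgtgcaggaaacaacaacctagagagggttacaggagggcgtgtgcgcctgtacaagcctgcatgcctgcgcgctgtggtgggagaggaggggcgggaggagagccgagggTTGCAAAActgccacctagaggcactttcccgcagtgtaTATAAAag
Thbs4: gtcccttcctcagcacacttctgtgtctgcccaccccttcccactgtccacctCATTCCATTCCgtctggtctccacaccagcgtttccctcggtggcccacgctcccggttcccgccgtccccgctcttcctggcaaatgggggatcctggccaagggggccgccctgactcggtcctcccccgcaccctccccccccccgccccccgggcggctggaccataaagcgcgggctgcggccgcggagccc

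Levels moved with the number of the 4 genes detected in all D7 fibroblasts. From 378 cells with none to 305 with all 4, C3 went from 191 to 890 CPM, Hp from 13.3 to 129, Ackr3 from 21.3 to 262, Efemp1 from 6.26 to 201, Adamts5 from 37.2 to 333 and Il33 from 261 to 651. Over the same steps Acta2 went from 777 to 15.3 CPM, Tagln from 568 to 16.2 and Eln from 1233 to 223. Median depth went from 3827 to 16078 UMIs along these steps, and its part in them was not tested. Among members, the 322 with Chl1 and the 108 without also differed: C3 was 927 and 594 CPM, Hp 162 and 27.7, Ackr3 214 and 74.7, Eln 248 and 891, and Acta2 27.5 and 76.8, at medians of 12963 and 8046.5 UMIs. In cells with at least 2 of the 4 genes that another set kept out, C3 was 397 CPM, below both kinds of member, and Eln was 643, between them.

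**Figure D4:**
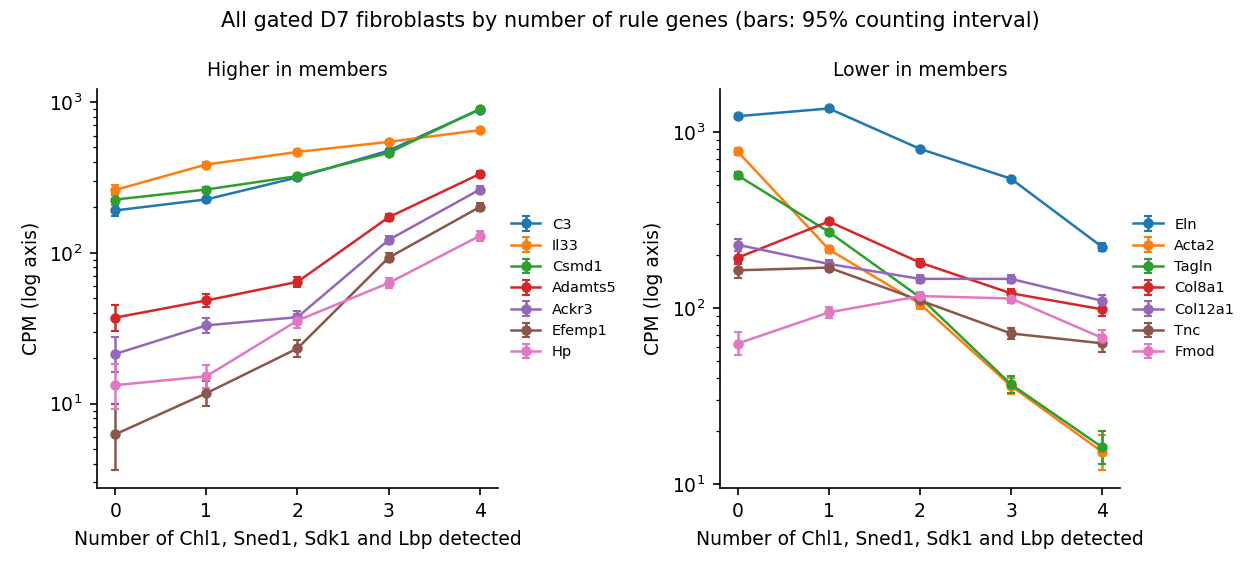
CPM (log axis) of 14 genes in all D7 fibroblasts by the number of Chl1, Sned1, Sdk1 and Lbp detected, 0 to 4, with 95% Poisson intervals. C3 goes from 191 to 890 CPM and Acta2 from 777 to 15.3, while median depth goes from 3827 to 16078 UMIs.

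Since 2 of 58 Sham members and 322 of 430 D7 members had Chl1, the rule may not take the same kind of cell in both libraries. Members at D7 and in Sham were far apart, with 570 of 3758 genes (15.2%), 256 higher (6.81%) and 314 lower (8.36%) at D7. Of 20 myofibroblast genes, 14 were higher at D7 and 1 lower (median 1.76), and of 15 Wnt genes, 9 were higher and 3 lower (median 1.07), beside 15.9% higher and 19.4% lower over 6914 genes (median -0.04). Postn was 1235 CPM at D7 and 343 in Sham. Several genes had no UMI in the Sham members and are given as bounds against 3 counts over all 58: Kif26b, a kinesin family member (92.2 CPM at D7), was at least 12.4-fold higher, the potassium channel gene Kcnj15 (84.0 CPM) at least 11.3-fold and the collagen Col11a1 (65.6 CPM) at least 8.86-fold. The other fibroblasts of D7 had 126, 69.7 and 160 CPM of these 3 genes. Myofibroblast genes were thus higher in D7 members than in Sham members, and lower than in the other D7 fibroblasts. Between Sham and D7 members, summed macrophage markers went from 148 to 60.1 CPM, neutrophil markers from 4.94 to 132, pericyte markers from 74.1 to 193 and adipocyte markers from 2.47 to 105, and their part in the result was not tested.

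Interferon genes were lower at D7 than in Sham members in 17 of 24 and higher in 1 (median -1.04). Over all 6914 genes of this comparison, 15.9% were higher and 19.4% lower. Ifi27l2a was 203 CPM at D7 and 679 in Sham. Basement membrane genes were lower in 8 of 13 and higher in none (median -0.98), with Col4a1, a collagen IV chain, at 150 and 760 CPM. Against the other fibroblasts of the same library, the interferon median of members was 0.28 at D7 and 0.14 in Sham. The basement membrane median was 0.19 and 0.04. The other fibroblasts of D7 and Sham were not compared on these lists, so the differences are not shown to be particular to members. Adventitial progenitor genes were lower in 13 of 17 and higher in none (median -0.84), and with all cells holding at least 2 of the 4 genes the median was -2.48. Genes of resting fibroblasts were lower in 10 of 19 and higher in 4 (median -0.74), with gelsolin (Gsn) at 1574 and 15191 CPM. Smpd3, a sphingomyelinase, was 7.02 and 151 CPM, and Cyp26b1, which breaks down retinoic acid, 3.42 and 59.3. In Sham, Cyp26b1 was 21.1 CPM in the other fibroblasts, and at D7 it was 5.78. The plot of list medians shows the 3 comparisons.

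**Figure D5:**
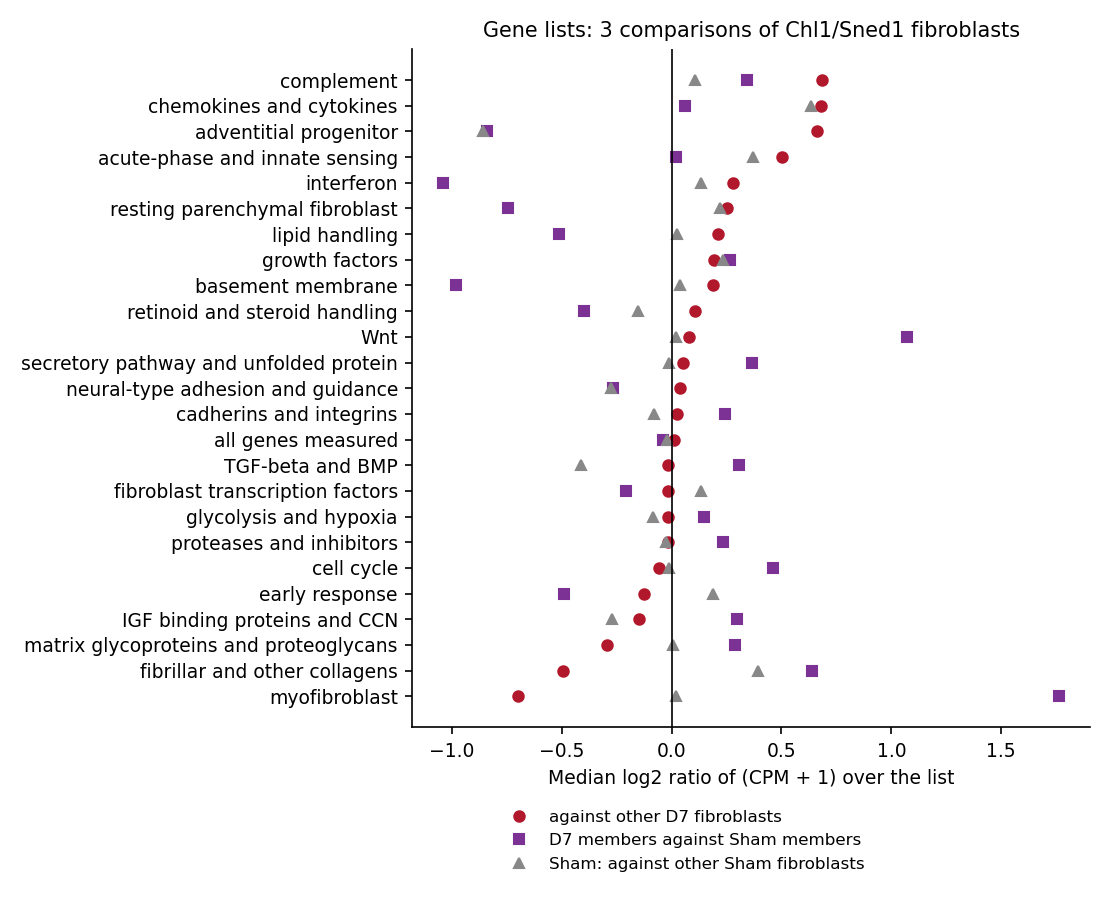
Median log2 ratio of (CPM + 1) (horizontal axis) over each gene list for D7 members over other D7 fibroblasts (red), D7 over Sham members (purple) and Sham members over other Sham fibroblasts (grey). The myofibroblast list lies at -0.70, 1.76 and 0.02, and the adventitial progenitor list at 0.66, -0.84 and -0.86; these comparisons share cells.

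Markers of several other cell types moved with membership at D7. Beside the adipocyte, smooth muscle, and tendon and cartilage markers given above, summed antigen-presentation markers were 118 CPM in members and 254 in the other fibroblasts, and endothelial markers 4.55 and 10.5. Skeletal muscle markers (0.949 and 2.05 CPM) and mesothelial markers (0.379 and 0.227 CPM) were near 0 in both. Macrophage markers were 60.1 and 76.1 CPM, Schwann cell markers 43.6 and 34.95, perineurial markers 24.7 and 20.1, pericyte markers 193 and 200.4, and neutrophil markers 132 and 122. In Sham, macrophage markers were 148 CPM in members and 60.6 in the others. The part of these markers in the results was not tested. Of the 430 D7 members, 55 had at least 2 markers of another cell class and 8 were called doublets. The classes counted were adipocyte, macrophage, neutrophil, T and B cell, endothelial, smooth muscle and Schwann cell. Pericyte and antigen-presentation markers were not counted. At least 2 of them were found in 99 and 96 D7 members (23.0% and 22.3%), and in 22.5% and 23.3% of the other fibroblasts. With cells of the counted classes left out of both sides, 51 genes were apart at D7, which does not say that they were the same genes. C3 then had a log2 ratio of 1.32 in place of 1.40, Acta2 of -1.58 in place of -2.22, Tagln of -1.88 in place of -2.51 and Col12a1 of -1.56 in place of -1.72. Spp1 against the Cthrc1 and Aspn set had a log2 ratio of 6.71 in that setting.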

How the data were processed

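Per the labels' protocols, the libraries were made by droplet capture of 3′ ends (10x Chromium, v3 reagents). The authors deposited raw UMI counts per gene and barcode, made with Cell Ranger 7.1.0 per the file headers, while Cell Ranger 7.2.0, mm10 and Seurat 5.0.1 stand in the submitters' processing notes. No cell annotation was used. Barcodes with at least 1000 UMIs, at least 300 genes and at most 15% mitochondrial UMIs were kept. UMIs were summed over cells and scaled to CPM, and ratios were taken of (CPM + 1). Lists were counted at 1.5-fold over genes with at least 20 CPM on either side. The 30 genes of the rule, with the gate genes, were left out of lists and comparisons. Shares carry Clopper-Pearson, CPM Poisson and CPM ratios conditional binomial intervals at 95%, which treat UMIs as independent and so understate the error where a few cells dominate. With 1 library per group there was no test and no p-value.

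Doublets were called by Scrublet (scanpy 1.11.5) with an expected rate of 8% and kept in the main results: 92, 513 and 336 cells in Sham, D2 and D7. Leukocytes were cells that passed the filters with at least 2 Ptprc UMIs, at most 1 Pecam1 UMI and fewer than 2 of the 8 stromal genes. The comparison of summed counts was run on simulated counts at the D7 totals, without variation between cells. The planted changes were larger than the bound for a gene to be apart. The simulation therefore does not cover genes held by a few cells, changes near the bound or the smaller Sham totals. Members and lists were chosen with earlier results of these data known. Named genes were the 12 highest and 8 lowest at D7 against other fibroblasts, and the 8 highest and 6 lowest against the Cthrc1/Aspn set and against Sham members, from genes with at least 50 CPM, 20 UMIs and a UMI in 10% of cells of the higher group and at least 0.25 of the level outside the fibroblast gate. Up to 5 genes per list with at least 50 CPM were added, with Il33 and the 4 genes of the rule. Other genes of the lists are given only in counts, and some genes that the rule named are not reported here. Python 3.11.15, NumPy 2.4.6, SciPy 1.17.1, pandas 2.3.3 and matplotlib 3.10.9 were used.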

Additional observations from a re-analysis of the deposited data

Results flagged for a closer look

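The adventitial progenitor list had a median log2 ratio of 0.66 for members against other fibroblasts at D7 and -0.86 in Sham, opposite directions under the same rule. That rule leaves out cells in which the Pi16 and Dpp4 set tied or led. This set tied or led in 65.7% of the cells kept out in Sham and 12.7% at D7. With all cells holding at least 2 of Chl1, Sned1, Sdk1 and Lbp, the Sham median was 0.85, so its direction depended on the rule. The gene Slc24a3, a sodium/calcium exchanger, had a log2 ratio of -1.12 at D7 and 1.46 in Sham. Neither difference between the libraries was tested, since each group is 1 library. At D2, whose members were too few to compare, 25.7% of fibroblasts had a Chl1 UMI, beside 0.439% in Sham.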

How the results depend on the processing

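The member share in Sham was 2.32% as reported, 3.66% after thinning to 2000 UMIs, 1.44% with at least 3 of the 4 genes and 3.11% with at least 5000 UMIs per cell. At D7 it was 14.96% as reported, 11.0% after thinning and 12.7% with at least 3 genes. There were 2 alternatives chosen after seeing the data: leaving out cells with 2 markers of another class, and taking all cells with at least 2 of the 4 genes whatever the other sets. Under the second, 64 genes in place of 155 were apart against the Cthrc1/Aspn set, and some directions turned: Spp1 at D7 (-0.62 against other fibroblasts, -0.00154 against the Cthrc1/Aspn set), Fmod at D7 (0.27), and in Sham the chemokine list (-0.10) and the adventitial progenitor list (0.85). The cause was not tested. List medians were taken again under each alternative for gene levels, except those against the Cxcl14/Mmp3/Cilp set. Single genes were taken again only where they were among the highest or lowest named genes of that comparison. Il33 was added at D7 against other fibroblasts. No single gene was taken again in the comparison within Sham, and most other genes given above were not covered. The results are counted together. Of the list medians, 655 stayed within the interval that the spread of the list's genes gives the reported median, which is wide for short lists. A further 15 moved and 2 reversed. Of the values of single genes, 229 stayed within their counting interval, 111 moved and 3 reversed. The second alternative above gave 14 of the moved and 2 of the reversed list medians. It also gave 32 of the moved and 3 of the reversed gene values, while adding 10 CPM gave 34 of the moved gene values. Setting genes without a UMI on 1 side at 3 counts moved no list median, but it could move few. Most lists had no such gene, and none had more than 4. No paired analysis was possible because each group is 1 library and no test was made. The 9 D2 members and 58 Sham members limit what can be said of those libraries, and levels in Sham members under about 7.41 CPM rest on at most 3 UMIs.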
